A study of Mus musculus with 24 samples.

Results

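Gene expression in the brain was compared between mice that ate a chimpanzee diet and mice that ate a human cafeteria diet. The comparison rests on the 12 of the study's 24 arrays whose titles name these diets, 6 arrays for each. Of all genes measured, 2 passed the test over all genes. The clock gene Per2 lay lower on the cafeteria diet, and Tcte1, a gene of the ciliary axoneme, lay higher. Neither passed when cafeteria batch 1 replicate 1, an array with pituitary hormone transcripts, was left out. Leaving out each array in turn gave 0 calls for 7 of the 12, of which that array was 1. Other genes that neuronal activity induces, among them Junb, Nr4a1, Egr2, Arc and Dusp4, and the clock genes Per1 and Bhlhe40 lay lower on the cafeteria diet in both batches without passing the test over all genes. Markers of cerebellum and thalamus lay higher, also without passing that test.

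All mice were females of the strain NMR-1, aged 8 weeks when the feeding began, which lasted 2 weeks, and littermates were spread evenly over the diets. The chimpanzee diet was the fruit, vegetables and yogurt fed to captive chimpanzees, and the cafeteria diet was cooked food from a canteen for people. Each array held RNA of the right cerebral hemisphere of 1 mouse, and each of 2 labelled batches held 3 mice of each diet. Since each array is a separate animal, the p-values measure the spread between mice.

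Immediate early genes are switched on within minutes when a neuron fires, through factors such as CREB and SRF that are already present in the cell. Many of their products are transcription factors, and others, such as the dual specificity phosphatases, shut the MAP kinase signal off again. In the circadian clock, the Per and Cry proteins repress the activators Clock and Arntl (Bmal1), and Per1 and Per2 can also be induced directly by activity and by glucocorticoids.

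The values are log2 expression levels of probe sets, so that a difference of 1 is a doubling. A mean level of at least 4.07 over the series left 13839 features, of which 11645 are genes read from 1 probe set each and 2194 are probe sets without a gene. All 15 pan-neuronal markers passed this minimum, against 1 of 9 blood markers and 3 of 10 skeletal muscle markers. Differences are cafeteria minus chimpanzee, from limma with batch as a term, and an adjusted p is over all 13839 features. The 11 arrays other than cafeteria batch 1 replicate 1 each correlated with the rest at a median r of 0.990 to 0.993, and that array at 0.984. It carried pituitary hormone transcripts, which are described separately, and the main results are also given without it. The spread of levels on chimpanzee batch 1 replicate 1 (SD 2.02) was nearer to that of batch 2 (2.01 to 2.05) than to the other batch 1 arrays (1.81 to 1.92). RNA quality, as the mean log2 difference between 3′ and 5′ control probe sets, was 0.268 ± 0.057 and 0.257 ± 0.054 (SD, n = 6) on the chimpanzee and cafeteria diets (exact permutation test within batch, two-sided, p = 0.75, where the smallest possible p is 0.005).

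Per2, a repressor within the clock, had log2 levels of 6.61, 6.37 and 6.35 in batch 1 and 6.35, 6.49 and 6.71 in batch 2 on the chimpanzee diet. In mice on cafeteria food its levels were 5.50, 5.86 and 5.88 in batch 1 and 5.85, 5.98 and 5.81 in batch 2. Every mouse on the cafeteria diet thus lay below every mouse on the chimpanzee diet. The difference was −0.67 (SE 0.10; adjusted p = 0.0162), with −0.70 and −0.63 in the batches, which is a 1.59-fold lower level. It was read from the Per2 probe set with the highest mean, and the other 2 Per2 probe sets had smaller differences of −0.15 (unadjusted p = 0.23) and −0.28 (unadjusted p = 0.0213).

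Tcte1, whose product belongs to a regulatory complex of the motile cilium, had log2 levels of 5.46, 5.47 and 5.37 in batch 1 and 5.07, 5.18 and 5.41 in batch 2 on the chimpanzee diet. In mice on cafeteria food it was at 6.47, 6.42 and 6.31 in batch 1 and at 5.65, 5.97 and 5.59 in batch 2. The diets did not overlap here either, and the 3 highest arrays were those of cafeteria batch 1. The difference was 0.74 (SE 0.10; adjusted p = 0.0162), with 0.97 in batch 1 and 0.52 in batch 2 (unadjusted p of the diet-batch interaction 0.0275, which did not pass over all features).

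Both calls depended on which arrays were included: of 12 fits that left out 1 array, 3 kept Per2 and 4 kept Tcte1. Without cafeteria batch 1 replicate 1 the differences were −0.61 for Per2 and 0.70 for Tcte1, each at an adjusted p of 0.0533, and 0 of 13839 features were called by limma (561 had an unadjusted p under 0.05). Per2 still passed when chimpanzee batch 1 replicate 1, batch 2 replicate 1 or batch 2 replicate 3 was left out, and Tcte1 without chimpanzee batch 1 replicate 1 or batch 2 replicate 3 and without cafeteria batch 2 replicate 1 or replicate 3. When any other array was left out, the adjusted p of that gene lay between 0.051 and 0.0831.

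The 2 calls are 0.0145% of the features. At an unadjusted p under 0.05 there were 592 features (4.28%), of which 278 (2.01%) lay higher and 314 (2.27%) lower on the cafeteria diet. The higher share, 47%, went either way with the processing: it was 32.9% (188 of 571) after each array was centred on its median and 68.2% (805 of 1180) with array weights. It was 62.7% (521 of 831) without chimpanzee batch 1 replicate 1, 59.4% (333 of 561) without cafeteria batch 1 replicate 1 and 30% (226 of 753) without chimpanzee batch 1 replicate 2. The methods' two-way test, which drops probe sets with a diet-batch interaction, gave 138 of 13601 genes (1.01%) at an unadjusted p under 0.01. Of all differences 45.9% were above 0, and their median was −0.01. The groups did not overlap for 25 features (0.181%), with the cafeteria diet lower for 11 (0.0795%) and higher for 14 (0.101%). Per2, Per1, Junb, Nab2 and Csad were among the lower features and Tcte1 among the higher. Nab2, a corepressor of the Egr factors that they induce themselves, was at 7.32 ± 0.31 on the chimpanzee and 6.76 ± 0.14 on the cafeteria diet (SD, n = 6), a difference of −0.56 (unadjusted p = 0.000446, adjusted p = 0.604 from limma). Csad, an enzyme of taurine synthesis, differed by −0.34.

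**Figure D1:**
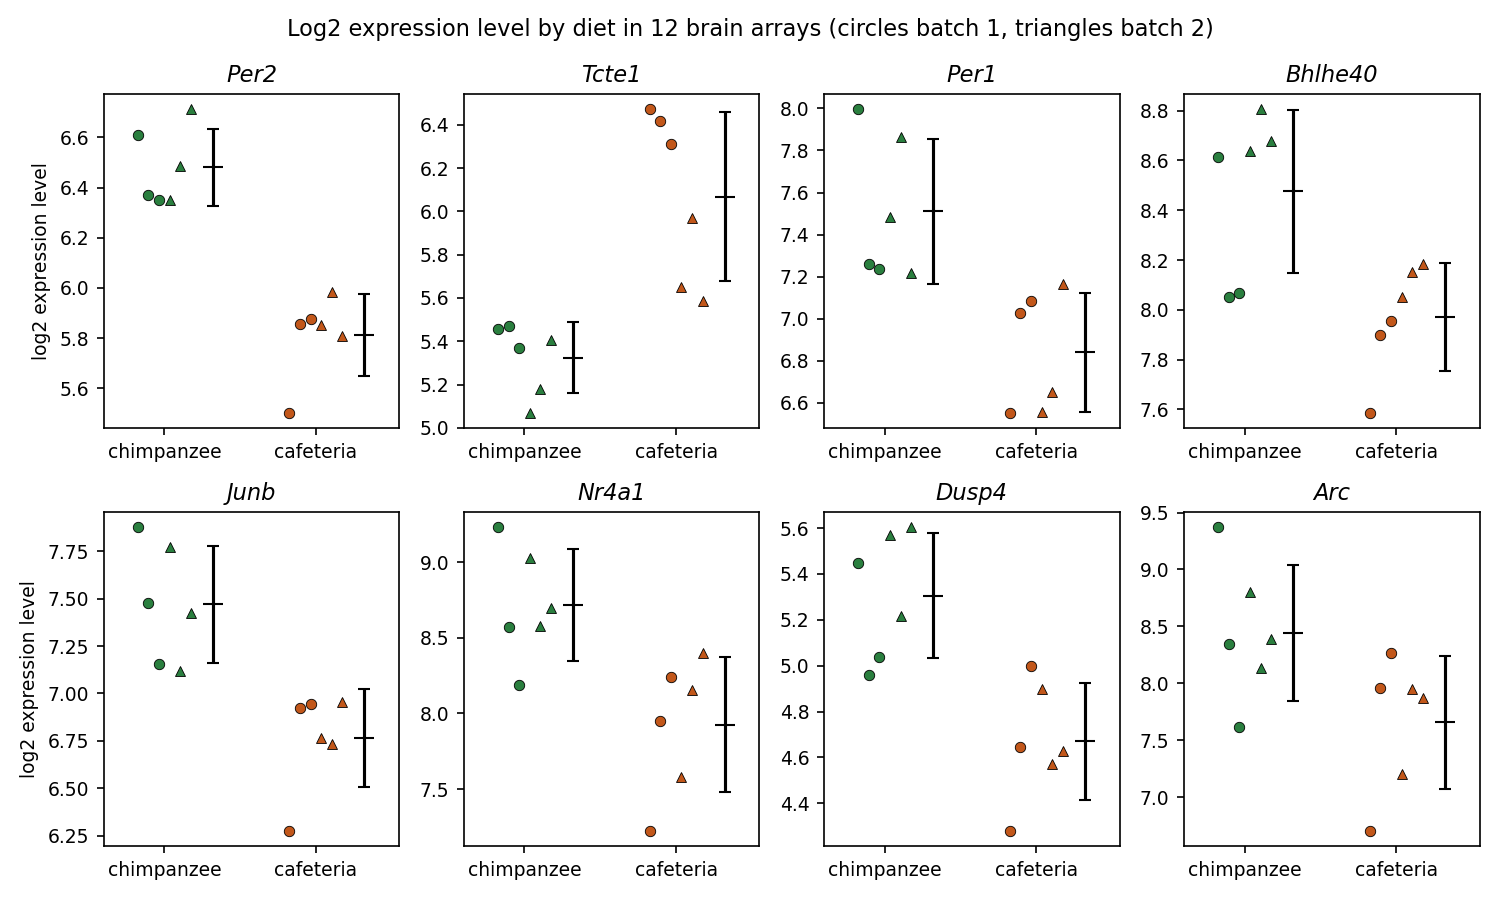
Log2 expression level of 8 genes in each of the 12 arrays, by diet, with circles for batch 1, triangles for batch 2, and a bar for the mean ± SD of 6 arrays; each vertical axis has its own range. Per2, Tcte1, Per1 and Junb do not overlap between the diets. Cafeteria batch 1 replicate 1 is the lowest point for every gene but Tcte1, for which it is the highest.

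Among immediate early transcription factors, 16 of 17 measured genes lay lower on the cafeteria diet, 8 of them at an unadjusted p under 0.05, where 2.27% of all features did. None passed over all features. The median difference was −0.20, against −0.01 over all features, and 13 of the 17 lay lower in both batches. Without cafeteria batch 1 replicate 1, 7 lay lower at an unadjusted p under 0.05 (1.65% of all features then) and the median was −0.30. At any p, 3 of the 17 lay higher without that array, against 1 with it. The median was −0.33 without chimpanzee batch 2 replicate 2.

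The members differed among themselves. Junb, a subunit of the AP-1 factor, ranged from 7.12 to 7.88 with a median of 7.45 on the chimpanzee diet and from 6.27 to 6.95 with a median of 6.85 on the cafeteria diet. The diets did not overlap, and the difference was −0.70 (SE 0.14; unadjusted p = 0.000151, adjusted p = 0.409 from limma). Nr4a1, an orphan nuclear receptor, ranged from 8.19 to 9.23 (median 8.64) and from 7.22 to 8.40 (median 8.05), and 4 of 6 cafeteria arrays lay below the lowest chimpanzee array. Its difference was −0.79 (SE 0.19), and that of its relative Nr4a3 was −0.70 (SE 0.16), although the other Nr4a3 probe set lay higher by 0.18 (unadjusted p = 0.138). The zinc finger factor Egr2, which acts in myelination and in neuronal plasticity, had the largest difference of the list, −0.92 (SE 0.24), with a range of 5.30 to 6.74 on the chimpanzee and 4.31 to 5.60 on the cafeteria diet. Klf10, a repressor induced by TGF-beta, differed by −0.76 (SE 0.18), with −0.69 and −0.82 in the batches.

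Fos and Egr1, the most widely used markers of neuronal activity, lay lower too. Fos was at 8.24 ± 0.46 and 7.60 ± 0.69 (SD, n = 6), a difference of −0.64 (SE 0.26) that was −0.83 in batch 1 and −0.45 in batch 2. Without cafeteria batch 1 replicate 1 it was −0.42 (unadjusted p = 0.0793). Egr1 differed by −0.58 (SE 0.20) and Fosl2, another AP-1 subunit, by −0.50 (SE 0.19). Other members lay near 0: Jun differed by −0.02, Nr4a2 by −0.10 and Npas4, a factor induced only in neurons, by −0.11, with −0.52 and 0.31 in the batches. Jund, which cells express at rest as well, was the single member that lay higher, by 0.06.

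Promoter sequences of Per1, Junb, Nr4a1 and Nr4a3 are shown because these genes lay low together and each holds TGACG, the core of the cAMP response element that CREB binds, or its reverse complement CGTCA. Each line gives the 250 bases before the RefSeq start on the gene's strand, 5′ to 3′ (GRCm38.p6), with TGACG or CGTCA and, in Per1, the clock's E-box CACGTG in capitals. The windows are chr11:69098699-69098948 (plus strand) for Per1, chr8:84978749-84978998 (minus) for Junb, chr15:101266596-101266845 (plus) for Nr4a1 and chr4:48045055-48045304 (plus) for Nr4a3.
Per1: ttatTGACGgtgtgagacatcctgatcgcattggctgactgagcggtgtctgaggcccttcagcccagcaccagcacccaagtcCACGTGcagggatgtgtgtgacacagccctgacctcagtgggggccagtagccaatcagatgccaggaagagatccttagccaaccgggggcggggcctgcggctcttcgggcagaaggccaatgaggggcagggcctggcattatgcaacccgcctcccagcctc
Junb: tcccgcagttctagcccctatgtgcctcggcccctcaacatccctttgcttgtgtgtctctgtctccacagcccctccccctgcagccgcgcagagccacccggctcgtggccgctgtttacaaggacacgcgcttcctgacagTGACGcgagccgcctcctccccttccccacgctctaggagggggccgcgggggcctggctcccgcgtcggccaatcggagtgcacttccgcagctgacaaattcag
Nr4a1: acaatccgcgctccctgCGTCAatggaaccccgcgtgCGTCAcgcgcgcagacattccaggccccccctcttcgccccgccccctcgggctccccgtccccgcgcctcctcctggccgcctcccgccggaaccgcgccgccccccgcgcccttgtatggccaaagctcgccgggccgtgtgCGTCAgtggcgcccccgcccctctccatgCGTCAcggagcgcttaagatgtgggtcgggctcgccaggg
Nr4a3: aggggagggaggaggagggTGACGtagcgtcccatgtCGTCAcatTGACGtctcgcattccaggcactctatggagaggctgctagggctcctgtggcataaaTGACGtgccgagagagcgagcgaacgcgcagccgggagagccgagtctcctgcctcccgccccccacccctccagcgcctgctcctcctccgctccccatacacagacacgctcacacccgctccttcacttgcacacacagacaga
Nr4a1 and Nr4a3 hold 4 matches each, and Per1 and Junb 1 each, with the first base of the Per1 E-box at position −166 from the start. Of 56 measured genes in the activity, phosphatase and clock repressor lists, 41 had a promoter in the table, and 24 of these (58.5%) held the core on either strand, against 30.7% of the 9404 measured genes in the table and 19.8% of all 27025. The share was 8 of 13 (61.5%) for those that lay lower at an unadjusted p under 0.05 and 16 of 28 (57.1%) for the others. The full element TGACGTCA was in 0 of the 13 and in 5 of the 28 (17.9%), and in 3.05% of the measured genes. CACGTG was in 4 of the 13 (30.8%) and 5 of the 28 (17.9%), against 10.2% of the measured genes. A match of letters is a description and not a binding site.

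Effector genes that activity induces were more mixed. Of 20 measured, 6 lay lower and 1 higher at an unadjusted p under 0.05 (2.27% and 2.01% of all features). The median was −0.10. This median was −0.01 without chimpanzee batch 1 replicate 1. Arc, which removes AMPA receptors from synapses, ranged from 7.62 to 9.37 (median 8.37) on the chimpanzee and from 6.71 to 8.27 (median 7.91) on the cafeteria diet, so that the diets overlapped broadly. Its difference was −0.78 (SE 0.27; unadjusted p = 0.0107). Gadd45b, which responds to stress and activity, differed by −0.42 (SE 0.14), the growth factor Bdnf by −0.27 (SE 0.11) and Nptx2, a secreted protein of excitatory synapses, by −0.27 (SE 0.12). Rasd1, a small GTPase that dexamethasone induces, was the exception, at 4.49 ± 0.26 and 4.84 ± 0.15 (SD, n = 6), a difference of 0.36 (SE 0.12).

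The phosphatases and other inhibitors that end MAP kinase signalling had a median of −0.24 (−0.17 without cafeteria batch 1 replicate 1), with 10 of 11 measured members lower. At an unadjusted p under 0.05, 4 lay lower and 1 higher (2.27% and 2.01% of all features). These counts were the same without cafeteria batch 1 replicate 1. At any p, 3 members lay higher without that array, against 1 with it. Dusp4, a nuclear phosphatase of ERK, ranged from 4.96 to 5.60 (median 5.33) on the chimpanzee and from 4.28 to 5.00 (median 4.64) on the cafeteria diet. All but 1 of the cafeteria arrays lay below the chimpanzee range, and the difference was −0.64 (SE 0.13; unadjusted p = 0.000136, adjusted p = 0.409 from limma). Dusp5, also nuclear, differed by −0.44 (SE 0.13), the cytoplasmic ERK phosphatase Dusp6 by −0.46 (SE 0.17), and Dusp14 by −0.41 (SE 0.13). Dusp10, which prefers JNK and p38, lay higher by 0.19 (SE 0.09). Dusp1, the classic immediate early member, differed by −0.44 (SE 0.24; unadjusted p = 0.0796), and by −0.24 (unadjusted p = 0.244) without cafeteria batch 1 replicate 1.

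**Figure D2:**
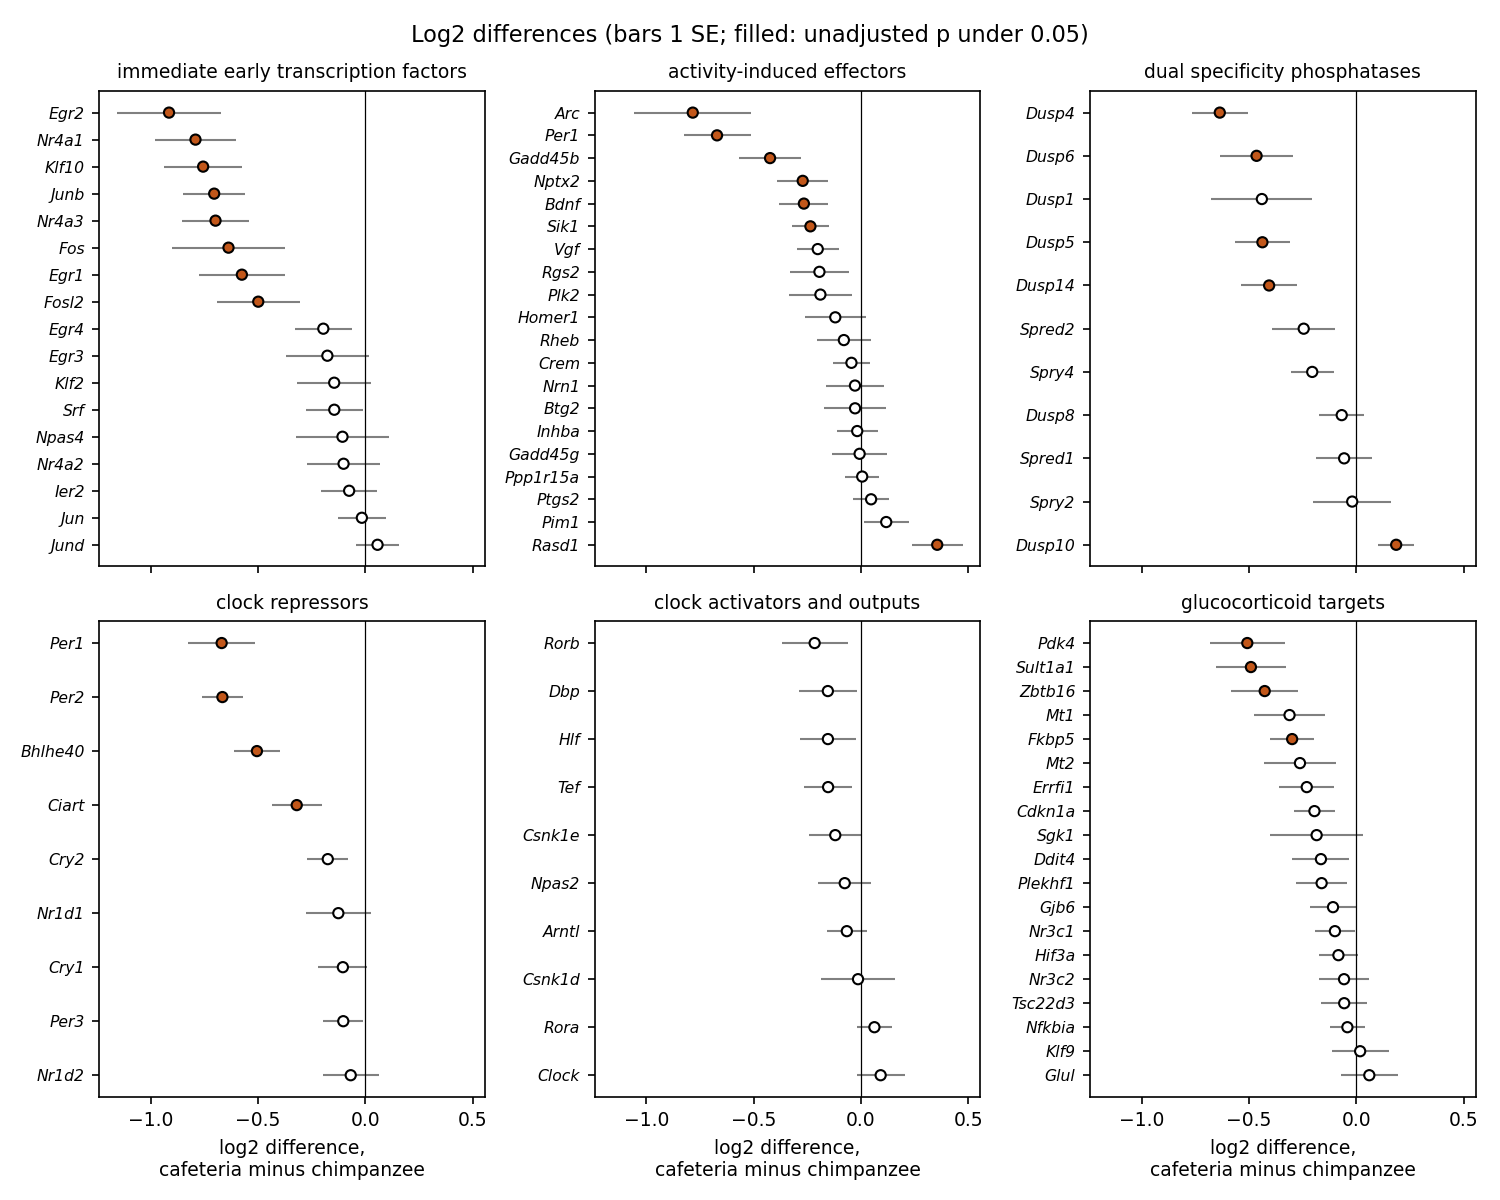
Log2 difference, cafeteria minus chimpanzee, of each measured member of 6 gene lists, with bars of 1 SE and filled circles for an unadjusted p under 0.05. Of these genes only Per2 passed over all features, and filled circles lie on the left except for Rasd1 and Dusp10.

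All 9 measured clock repressors lay lower on the cafeteria diet, 4 of them at an unadjusted p under 0.05 (2.27% of all features). The median was −0.18 (−0.21 without cafeteria batch 1 replicate 1, where 8 lay lower). The 4 were Per2, Per1, Bhlhe40 and Ciart. Per1 ranged from 7.22 to 8.00 (median 7.37) on the chimpanzee and from 6.55 to 7.17 (median 6.84) on the cafeteria diet. The diets did not overlap, and the difference was −0.67 (SE 0.16; unadjusted p = 0.000516, adjusted p = 0.604 from limma). Bhlhe40, which competes with the clock activators for E-boxes and is also induced by activity, differed by −0.51 (SE 0.11; adjusted p = 0.409), with −0.43 and −0.58 in the batches. After quantile normalization of the 12 arrays it passed, with a difference of −0.48 (adjusted p = 0.00815), and 1 of 3 calls lay higher there, against 1 of 2. Ciart, a repressor within the clock, differed by −0.32 (SE 0.12).

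The other repressors had smaller differences, with −0.18 for Cry2 and −0.13 for Nr1d1, the latter with 0.03 in batch 1 and −0.29 in batch 2. Among 10 measured clock activators and outputs none reached an unadjusted p under 0.05, 8 lay lower and the median was −0.10 (−0.03 without chimpanzee batch 1 replicate 1). Clock differed by 0.09, its partner Arntl by −0.07 and the output gene Dbp by −0.15. The hour at which the mice were killed is not given in the sources used here.

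Glucocorticoid targets lay lower for 17 of 19 measured genes, 4 at an unadjusted p under 0.05 (2.27% of all features), with a median of −0.16. Without cafeteria batch 1 replicate 1, 5 of them lay higher, against 2 with it. The median was −0.09 without cafeteria batch 1 replicate 1, −0.11 without chimpanzee batch 1 replicate 1 and −0.26 without cafeteria batch 1 replicate 3. Pdk4, a kinase that keeps pyruvate out of the citric acid cycle, differed by −0.51 (SE 0.17), with −0.82 in batch 1 and −0.19 in batch 2. The sulfotransferase Sult1a1 differed by −0.49 (SE 0.16), the zinc finger factor Zbtb16 by −0.43 (SE 0.16) and Fkbp5, a chaperone that dampens the glucocorticoid receptor, by −0.30 (SE 0.10). The classic targets Tsc22d3 and Klf9 lay close to 0, at −0.06 and 0.02.

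The array means of these lists overlapped between the diets. The mean log2 level of the immediate early factors was 7.90 in chimpanzee batch 1 replicate 1 and 6.95 to 7.59 in the other chimpanzee arrays. It was 6.58 in cafeteria batch 1 replicate 1 and 6.83 to 7.32 in the others on that diet. The same arrays were highest and lowest for the phosphatases, at 7.52 and 6.53. The clock repressors ranged from 6.96 to 7.41 and from 6.67 to 7.07, with 4 of 6 cafeteria arrays below the chimpanzee range, and their highest array was chimpanzee batch 2 replicate 2. Genes that are not of these pathways set the same arrays of batch 1 apart. Cytosolic ribosomal proteins had a mean of 10.56 in chimpanzee batch 1 replicate 1, against 9.53 and 9.76 in the other chimpanzee arrays of that batch, and of 9.71 in cafeteria batch 1 replicate 1, against 10.12 and 10.23. Pan-neuronal markers were at 10.20 against 9.43 and 9.60, and at 9.43 against 9.77 and 9.86. Between the diets these 2 lists had median differences of −0.02 and −0.06, and their part in the other differences was not tested. Without chimpanzee batch 1 replicate 1 the median difference was −0.18 for the immediate early factors, −0.22 for the phosphatases and −0.13 for the clock repressors.

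**Figure D3:**
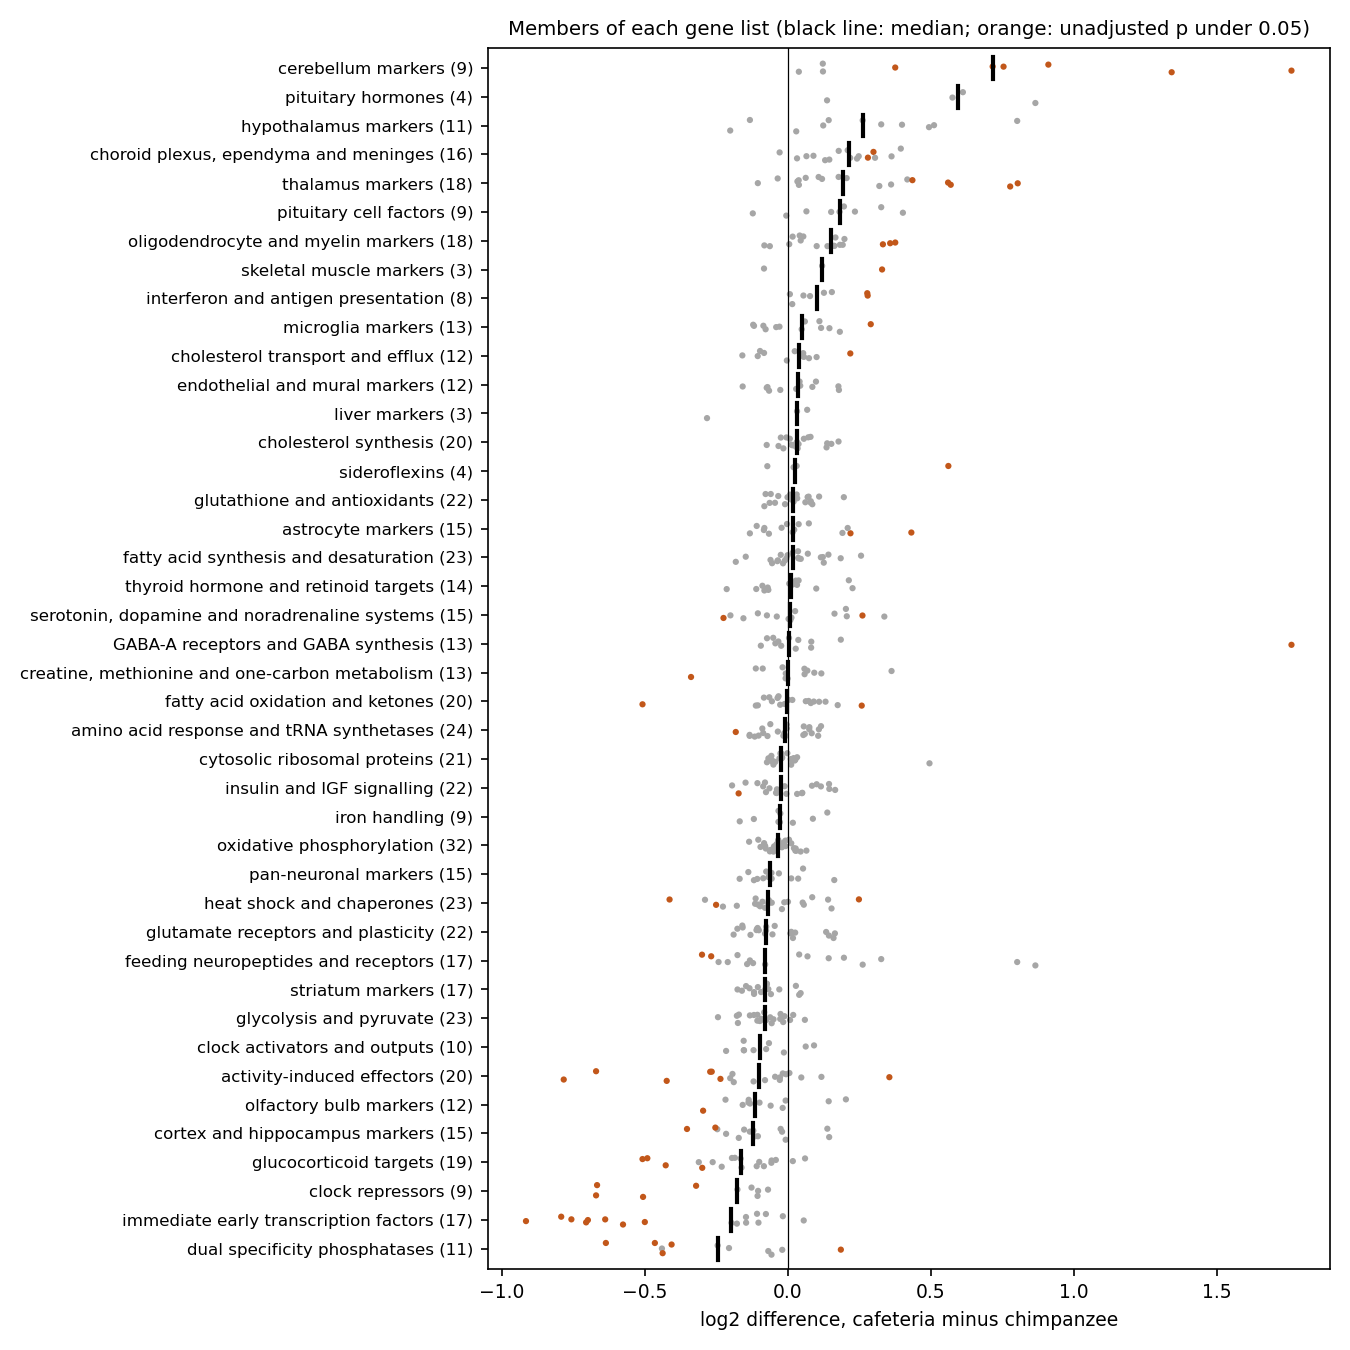
Log2 difference, cafeteria minus chimpanzee, of every measured member of each gene list with 3 or more measured members, ordered by the list's median (black line), with the number of members in brackets and members at an unadjusted p under 0.05 in orange. In the fit to all 12 arrays, phosphatases, immediate early factors and clock repressors have the lowest medians, and cerebellum markers, with a median of 0.72, lie highest.

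Markers of some brain regions lay higher or lower on the cafeteria diet, although none passed over all features. In bulk tissue a change in the number of cells of a type cannot be told apart from a change of RNA per cell. How much of each region a dissected sample held was not measured, so uneven dissection cannot be told apart from either. Of 16 listed cerebellum markers, 9 passed the level minimum. All 9 lay higher on the cafeteria diet, 6 of them at an unadjusted p under 0.05, where 2.01% of all features did. The median was 0.72, with 0.68 in each batch, and 0.78 without cafeteria batch 1 replicate 1, where 5 lay higher at an unadjusted p under 0.05 (2.41% of all features then). With other arrays left out in turn it ran from 0.48 (cafeteria batch 1 replicate 3) to 0.86 (cafeteria batch 2 replicate 2). Gabra6, a GABA-A receptor subunit of cerebellar granule cells, was at 5.85, 2.95 and 7.32 in cafeteria batch 1 and at 7.19, 4.38 and 3.58 in cafeteria batch 2, against 2.95 to 4.22 on the chimpanzee diet. The difference of 1.76 (SE 0.62) thus came from some of the mice, with 4 of 6 above the chimpanzee range. Gabra6 had a mean of 3.45 on the chimpanzee diet, under the level minimum of 4.07, and counted as measured only through arrays where it was higher.

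The Purkinje cell gene Pcp2 had the same arrays on top, at 6.64, 7.69 and 6.98, and a difference of 1.34 (SE 0.44). Cbln1, which granule cells release onto Purkinje synapses, ranged from 5.46 to 6.37 and from 6.09 to 7.61, a difference of 0.91 (SE 0.24; unadjusted p = 0.00134). The other 2 Cbln1 probe sets gave 1.24 and 0.59. Zic1, a factor of granule cells that is also present in thalamus and septum, differed by 0.72 (SE 0.20), Car8, a Purkinje cell protein, by 0.76 (SE 0.31), and Neurod1, a factor of granule cells, by 0.38 (SE 0.16).

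Of 18 measured thalamus markers 16 lay higher, 5 at an unadjusted p under 0.05 (2.01% of all features), and the median was 0.19. It was 0.25 and 0.12 in the batches and 0.12 without chimpanzee batch 1 replicate 1. Tcf7l2, a factor of Wnt signalling that marks thalamic neurons, was at 3.92 in chimpanzee batch 1 replicate 1 and at 3.91 in chimpanzee batch 2 replicate 2, against 4.98 to 5.37 in the other chimpanzee arrays and 4.93 to 6.18 on the cafeteria diet. Shox2, a homeobox gene of thalamic neurons, was lowest in the same 2 arrays, at 4.37 and 4.29, against 5.55 to 6.59 on the cafeteria diet. The differences were 0.78 (SE 0.26) for Tcf7l2 and 0.80 (SE 0.30) for Shox2. Slc17a6, the glutamate transporter of thalamic synapses, differed by 0.57 (SE 0.24) and Calb2, a calcium-binding protein, by 0.56 (SE 0.25).

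The mean of the thalamus list was 6.07 and 6.16 in those 2 chimpanzee arrays, 6.68 to 6.74 in the other 4 and 6.55 to 7.02 on the cafeteria diet. The same 2 arrays had the highest means of the cortex and hippocampus list, 7.85 and 7.84, against 7.14 to 7.61 in the other chimpanzee arrays. Of 15 cortex and hippocampus markers 13 lay lower on the cafeteria diet, 2 at an unadjusted p under 0.05 (2.27% of all features). Their median was −0.12, and −0.01 without chimpanzee batch 1 replicate 1. Tbr1, a factor of deep cortical neurons, differed by −0.35 (SE 0.13), and Dkk3, a secreted protein of cortex and hippocampus, by −0.25 (SE 0.11). Of 17 striatum markers 14 lay lower, 0 at an unadjusted p under 0.05 in limma, with a median of −0.08 (0.04 and −0.19 in the batches). The part of region markers in the differences of the activity and clock genes was not tested.

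**Figure D4:**
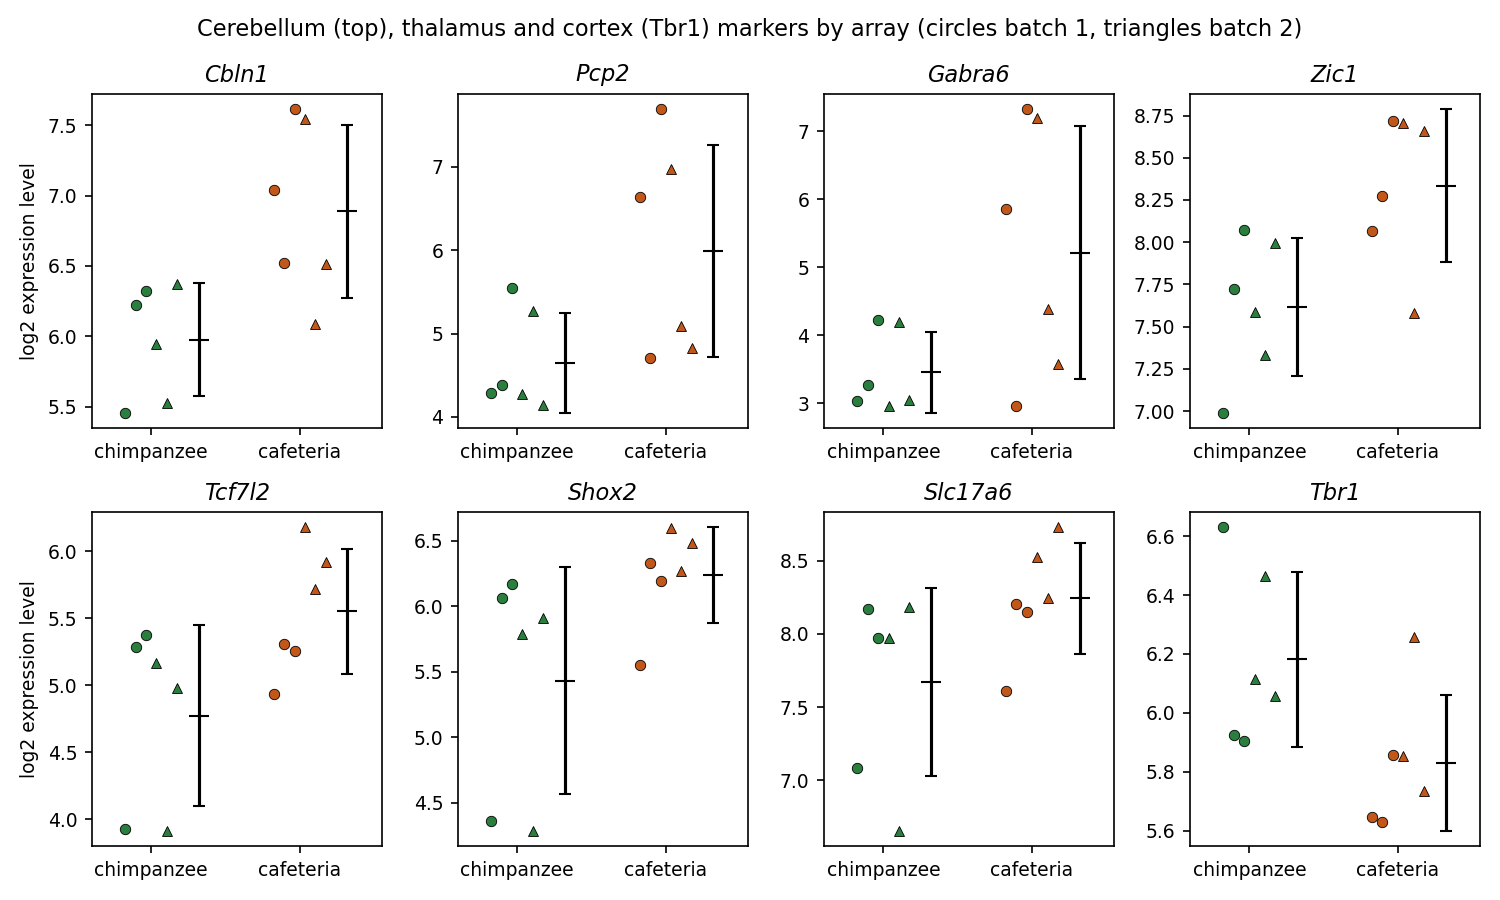
Log2 expression level of 4 cerebellum markers (top), 3 thalamus markers and the cortex marker Tbr1 in the 12 arrays, with circles for batch 1, triangles for batch 2, and a bar for the mean ± SD of 6 arrays; each vertical axis has its own range. Tcf7l2, Shox2 and Slc17a6 are lowest in 2 chimpanzee arrays, 1 of each batch, and Gabra6 and Pcp2 are high in 3 cafeteria arrays.

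Markers of the choroid plexus, ependyma and meninges lay higher on the cafeteria diet for 15 of 16 genes, with a median of 0.21 (0.13 without cafeteria batch 2 replicate 1). Of these, 2 did so at an unadjusted p under 0.05, where 2.01% of all features did. The 2 genes were Clic6, a chloride channel protein of the choroid plexus, with 0.30 (SE 0.12), and Ccdc153, a ciliary gene of ependyma, with 0.28 (SE 0.11). Ccdc153 had a mean of 4.05 on the chimpanzee and 4.33 on the cafeteria diet. The former is under the level minimum of 4.07, so it counted as measured only through arrays where it was higher. Foxj1, the main factor of motile cilia, differed by 0.09 (SE 0.08). Tcte1, also a gene of motile cilia, was not in this list.

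Myelin and oligodendrocyte markers lay higher for 16 of 18 genes, 3 at an unadjusted p under 0.05 (2.01% of all features). The median was 0.15 (0.09 without chimpanzee batch 2 replicate 2). Opalin, a membrane protein of myelin, ranged from 6.50 to 7.01 on the chimpanzee and from 6.66 to 7.37 on the cafeteria diet, a difference of 0.36 (SE 0.11). Gjb1, a gap junction protein, differed by 0.38 (SE 0.14) and Ugt8a, which makes the lipid galactosylceramide, by 0.33 (SE 0.12). Mbp, a major protein of compact myelin, differed by 0.01.

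The medians of the astrocyte and microglia lists were small, while single members lay higher. Aqp4, the water channel of astrocyte endfeet, differed by 0.43 (SE 0.13), while Gfap, the astrocyte filament protein, differed by −0.0024 and the median of the 15 astrocyte markers was 0.02 (−0.001 after centring). Trem2, a lipid receptor of microglia, was at 5.00 ± 0.19 and 5.29 ± 0.10 (SD, n = 6), a difference of 0.29 (SE 0.10), against a median of 0.05 over 13 microglia markers. All 8 measured interferon and antigen presentation genes lay higher, where 45.9% of all features did, 2 at an unadjusted p under 0.05 (2.01%). The median was 0.10, with 0.19 and 0.02 in the batches, and 0.06 without chimpanzee batch 1 replicate 2. The mean of the list ranged from 5.91 to 6.30 on the chimpanzee and from 6.11 to 6.26 on the cafeteria diet, so that the diets overlapped. The class I molecules H2-K1 and H2-D1 each lay higher by 0.28, although near-identical sequences mean that their probe sets cannot be assigned to 1 gene with certainty.

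Metabolic lists gave few differences. Of 20 cholesterol synthesis genes, 23 fatty acid synthesis genes, 23 glycolysis genes and 32 oxidative phosphorylation genes, 0 reached an unadjusted p under 0.05 in either direction, and 0 passed over all features in limma. Their medians were 0.03, 0.02, −0.08 and −0.03, of which that of fatty acid synthesis was −0.0013 after centring and that of oxidative phosphorylation 0.001 after quantile normalization. For glycolysis 20 of 23 lay lower, but the median was 0.02 without chimpanzee batch 1 replicate 1. Of 22 insulin and IGF signalling genes only Tsc2, which restrains mTORC1, lay lower at an unadjusted p under 0.05, by −0.17 (SE 0.08). In the feeding list of 17 genes, Npy, a peptide of cortical interneurons and of hunger neurons, differed by −0.27 (SE 0.12) and the cholecystokinin receptor Cckbr by −0.30 (SE 0.10), although its other probe set differed by −0.01.

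The largest differences upward included Ttyh2, of a family of chloride channels, which ranged from 5.60 to 6.27 (median 5.94) on the chimpanzee and from 6.12 to 7.10 (median 6.62) on the cafeteria diet. All but 1 cafeteria array lay above the chimpanzee range, and the difference was 0.70 (SE 0.13; unadjusted p = 5.7e-05, adjusted p = 0.263 from limma). It passed without chimpanzee batch 2 replicate 3, with a difference of 0.82 (adjusted p = 0.00867). Sfxn5 is 1 of 4 measured sideroflexins, carriers of the mitochondrial membrane whose median difference was 0.03. It differed by 0.56 (SE 0.12), with 0.84 in batch 1 and 0.28 in batch 2. Inpp4a, a phosphatase of inositol lipids, differed by 1.00 in batch 1 and by 0.03 in batch 2. Igsf1, an immunoglobulin superfamily protein, differed by 0.67 (SE 0.19) and the membrane protein gene Tmem255a by 0.49 (SE 0.15). Downward, Frmd6, a scaffold of the Hippo pathway, differed by −0.56 (SE 0.12), and Palm2, of the paralemmin family, by −0.61 (SE 0.17).

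Cafeteria batch 1 replicate 1 held pituitary hormone transcripts that the other arrays lacked at that level. Growth hormone (Gh) was at 11.65, against 3.80 to 5.52 in the other 11 arrays, prolactin (Prl) at 11.28 against 3.49 to 5.42, and Pomc, the precursor of ACTH, at 10.47 against 4.87 to 6.59. Cga, the shared subunit of the glycoprotein hormones, was at 7.99 against 3.26 to 4.29, Tshb, the thyrotropin subunit, at 5.23 against 3.37 to 3.87, and Lhb, the lutropin subunit, at 5.14 against 3.85 to 4.19. Fshb, the follitropin subunit, was at 3.15 and lay within the range of the others. The pituitary factors Lhx3 and Pitx1 and the receptor Ghrhr were at 5.11, 4.72 and 5.15, each above all other arrays. Gal (5.38) and Gnrhr (3.16) of the same list also lay above all other arrays. The rest of that list lay within the range of the other arrays. These were Hesx1, Lhx4, Tbx19, Nr5a1, Trhr, Crhr1, Dlk1, Chgb, Scg2 and Cartpt.

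Set against the median of the other 5 arrays of batch 1, Gh was 7.78, Prl 7.56, Cga 4.39 and Pomc 4.22 higher, and these 4 were the largest excesses of all features. The cerebellar Gabra6 followed at 2.59. Only 7 of 27353 features, counted without the level minimum, lay over 2 above the median of the other batch 1 arrays on this array. For the hormones that passed the level minimum (Gh, Prl, Pomc and Lhb) the median difference between the diets was 0.59 with this array and −0.36 without it.

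**Figure D5:**
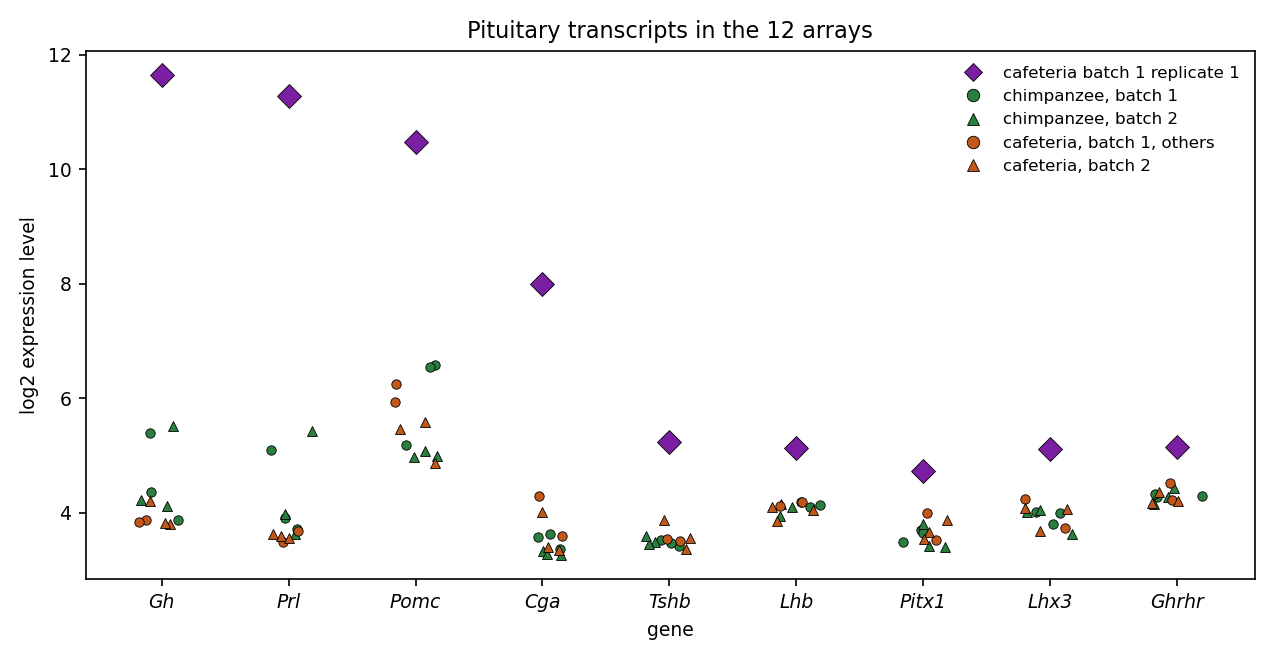
Log2 expression level of 6 pituitary hormone genes, 2 pituitary transcription factors and the receptor gene Ghrhr in the 12 arrays, by diet and batch, with cafeteria batch 1 replicate 1 as a purple diamond. The diamond lies above every other array for each of the 9 genes, from 11.65 for Gh to 4.72 for Pitx1. Fshb and the pituitary factors that lay within the range of the other arrays are not shown.

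The same array was the lowest of the 12 for Junb (6.27), Nr4a1 (7.22), Arc (6.71), Dusp4 (4.28), Per2 (5.50), Per1 (6.55) and Bhlhe40 (7.59). For Tcte1 (6.47) it was the highest. Without it the differences of Junb, Nr4a1, Arc, Dusp4, Per1 and Bhlhe40 were −0.60, −0.66, −0.57, −0.57, −0.60 and −0.46, each lower on the cafeteria diet. Those of Cbln1, Pcp2 and Tcf7l2 were 0.90, 1.25 and 0.88 without it.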

How the data were processed

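The deposited values are log2 expression levels of 45101 probe sets of an Affymetrix mouse genome array. The authors made them with “rma” (the “affy” package), which includes quantile normalization. The SD of levels still ran from 1.58 to 2.06 between arrays of the series, so the arrays do not share 1 distribution. Diet, batch and replicate came from the sample titles. The 64 control probe sets and those with several genes were set aside, as were those with a mean level under 4.07 (the median) over 24 arrays. This stood in for the detection p-values of the methods, which were not used here. Of a gene's probe sets the one with the highest mean was kept. Genes were named by the platform's annotation (34945 probe sets with 1 gene, 932 with several, 9160 with none).

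The test was limma's (version 3.58.1, R 4.3.3), with diet and batch as terms on the 12 arrays only, at a Benjamini-Hochberg adjusted p under 0.05. The methods' two-way test was an alternative. The 43 gene lists (602 of 779 genes measured) are described by counts and medians. Genes were named by rule: called genes, the 10 largest differences each way at an unadjusted p under 0.01 with 1 sign in both batches, and up to 4 list members at an unadjusted p under 0.05. Fos, Egr1, Nab2 and others outside it were chosen after their values were seen. Members and lists were chosen with earlier results of these data known. Tested on simulated data with this design, the fit called 99 of 100 features given a difference of 1 log2 and 81 of 100 given 0.5, with 9 false calls among 189. The simulation changed 200 features and drew noise for each feature separately, without effects shared by the features of an array. Its shares therefore need not hold for the measured data. Promoters are RefSeq's. Figures used matplotlib 3.10.9 (Python 3.11.15). Precision is limited by the number of arrays.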

Additional observations from a re-analysis of the deposited data

Results flagged for a closer look

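Among 168 groups of 6 arrays, 1 array lay far from the other 5 in 16. The groups include the pituitary genes, which were listed because cafeteria batch 1 replicate 1 was known to be high for them. The count therefore cannot be set against the 1 in 20 groups that chance would give. Of the 16, 11 were cafeteria batch 1 replicate 1. It was high for the pituitary genes Gh (11.65), Prl (11.28), Pomc (10.47), Cga (7.99), Tshb (5.23), Lhb (5.14), Ghrhr (5.15) and Gnrhr (3.16, near the low end of all levels), and low for Junb (6.27), Per2 (5.50) and Tmem255a (7.19). Cafeteria batch 2 replicate 2 was low for the neuropeptide gene Cartpt (5.77) and for Dlk1 (4.45), which encodes a Notch ligand relative, and high for the cortical factor Tbr1 (6.26). In the chimpanzee group, batch 2 replicate 3 was high for the astrocyte water channel Aqp4 (9.05) and batch 1 replicate 2 was low for Sfxn5 (6.56).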

How the results depend on the processing

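The 2 called features became 0 with all 24 arrays in the fit, in batch 1 alone, in batch 2 alone, without the batch term and in the two-way test of the methods after Benjamini-Hochberg adjustment (800 of 13601 genes had an unadjusted p under 0.05 there). At a mean log2 level of at least 6, which left out Per2 and Tcte1 before the test, 0 of 7610 other features were called (248 had an unadjusted p under 0.05). The 2 calls became 1 with the mean of a gene's probe sets, and 0 to 4 when each array was left out, with 0 for 7 of the 12. The 4, without chimpanzee batch 2 replicate 3, were Per2, Tcte1, Ttyh2 and 1 probe set without a gene. Features at an unadjusted p under 0.05, 592 as reported, numbered 197 with all 24 arrays and 1180 with array weights. The methods left out 1 unnamed pellet array for degraded RNA, and pellet batch 2 replicate 1 correlated with the others at a median r of 0.893 (SD of its levels 1.58). Without it, a choice made after seeing the data, the fit to 23 arrays called 0 features, and 400 had an unadjusted p under 0.05. With the level minimum set from the 12 arrays alone, Per2 and Tcte1 were called. Over 26 alternatives the difference of Per2 lay between −0.71 and −0.37 and that of Tcte1 between 0.52 and 0.97. The adjusted p of Per2 lay between 0.00272 and 1 and that of Tcte1 between 0.00227 and 1, and 10 and 12 of the alternatives kept the call. With the replicate block, which pairs mice of 1 batch and number, 0 features were called by limma and 433 had an unadjusted p under 0.05. Same-numbered arrays, as deviations from the mean of the 3 arrays of their diet and batch, correlated at −0.50 to 0.25 over 6 pairs. So few arrays cannot settle whether the numbers pair the mice, and the numbers were treated as names only.

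For the diet-batch interaction, 0 features were called as reported and 244 (1.76%) had an unadjusted p under 0.05. It called 1, Tmem250-ps, after quantile normalization, with a trended robust spread (1 as well), and 0 to 1 when each array was left out. Of 1647 differences of the 62 named genes under the alternatives, 1646 kept their direction, and the other was −0.039 for the muscle gene Tnni2 in batch 2 alone, where the median of the muscle markers was also −0.039. The named genes were chosen by their p-values in these arrays, and the alternatives use the same arrays or part of them, so a change of direction was unlikely from the start. No other list median moved by more than 1 SD of the list's mean between arrays, in 713 of 714 values. That SD was taken within diet and batch, and for some lists it was larger than the median itself. Such a median could change sign and still count as unmoved. The pituitary hormone median was 0.59 with all 12 arrays and −0.36 without cafeteria batch 1 replicate 1. That of glycolysis was −0.08, and 0.02 without chimpanzee batch 1 replicate 1. The count therefore says little about how stable the medians are. Differences under 0.5 log2 were not simulated. In the data, larger ones with a wide spread between mice missed the test, such as 1.76 (SE 0.62) for Gabra6 and −0.92 (SE 0.24) for Egr2. Junb, at −0.70 (SE 0.14), and Ttyh2, at 0.70 (SE 0.13), missed it as well.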

Other observations

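Hypothalamus markers lay higher on the cafeteria diet for 9 of 11 measured genes, with 0 at an unadjusted p under 0.05 and a median difference of 0.26. The median was 0.53 in batch 1 and 0.01 in batch 2. Without chimpanzee batch 1 replicate 1 it was 0.09. The spread between mice was wide: Pmch, which encodes melanin-concentrating hormone and is also in the feeding list, was at 6.72 ± 1.88 and 7.53 ± 1.75 (SD, n = 6), and the oxytocin gene Oxt at 6.76 ± 0.99 and 7.16 ± 1.18. The mean of the list was lowest in chimpanzee batch 2 replicate 2, at 5.19, and in cafeteria batch 2 replicate 2, also at 5.19, against 5.46 to 6.59 in the other 10 arrays.

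Of the 25 features whose diets did not overlap (0.181%), 3 more are given here, chosen after their values were seen. Mmp2, a gelatinase, was at 4.03 ± 0.05 on the chimpanzee and 4.33 ± 0.12 on the cafeteria diet (SD, n = 6), a difference of 0.30 (SE 0.08; unadjusted p = 0.00171, adjusted p = 0.794 from limma). Mmp14, which activates Mmp2, differed by 0.26 (SE 0.08). Both lie near the minimum level of 4.07, and the chimpanzee mean of Mmp2 was under it. Hrh3, the histamine autoreceptor, differed by −0.20 (SE 0.08).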
